A study of Mus musculus with 12 samples.

Results

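Cholesterol synthesis in the brain was followed through 8 genes: Hmgcs1, Idi1, Fdps, Sqle, Lss, Cyp51, and Dhcr7, which encode enzymes of the pathway, and Insig1, which encodes a regulator of it. They were chosen by name, with no measured value in the rule but with earlier results of these data known. They were found through the accession of their probe on an Agilent mouse array, which left 8 of the 19648 genes tested. Each gene had 1 probe in 1 spot, and every probe was well above background on all 12 arrays.

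The study compared mouse models of Alzheimer's disease with 1 array for each model, and each array carried RNA pooled in equal amounts from 3 animals. The 12 arrays fall into 3 sets of the same strain and brain region. The first set is the prefrontal cortex of untreated C57BL/6 mice aged 1.5, 4, 17, and 22 months. The second is the hippocampus of C57BL/6 mice that carried a human transgene, namely mutated NCSTN at 10 months, wild-type MAPT at 12 months, and the 5xFAD transgenes, which drive amyloid formation, at 6 months. The third is the hippocampus of ICR mice of 7 weeks, an outbred stock. These mice were injected into the brain ventricles with Aβ at 5 or 10 µM or streptozotocin at 2.5 or 3 mg/kg and sampled after 14 days, or intraperitoneally with scopolamine at 1 mg/kg and sampled after 30 min. All mice had been fasted overnight, and the methods describe all of them as male. The promoters that drive the transgenes are not given in the sources used here, and untreated hippocampus was not analysed here, so each array could only be set against the other arrays of its own set. Arrays of a set are different models and not replicates, so the spread within a set holds both model and technical differences.

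Cholesterol does not cross from the blood into the brain in useful amounts, and brain cells make their own, much of it for the myelin of oligodendrocytes and the rest in astrocytes and neurons. Acetyl-CoA is built up to isoprenoids, joined to squalene, closed to lanosterol, and trimmed to cholesterol. When sterols in the endoplasmic reticulum run low, sterol regulatory element binding protein 2 (SREBP-2, gene Srebf2) moves to the nucleus and switches on nearly all genes of the pathway, whereas INSIG1 holds the factor back and is itself among its targets.

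The region before the start of the gene is where SREBP-2 and its partner NF-Y bind such genes, so the 250 bases upstream of the RefSeq start are shown for genes on which the results turn. The RefSeq promoter table of GRCm38.p6 held 6 of the 8 genes, and it held none for Sqle and Fdps. The letters searched on both strands were TCACNCCAC and TCACCNCA for a sterol regulatory element and CCAAT for the NF-Y box, and the sterol patterns can overlap each other. These patterns were picked with the sequences at hand. Capitals mark the matches, in which ATTGG is CCAAT on the opposite strand. Hmgcs1 was printed for its match to both sterol patterns (chr13:119690101-119690350, plus strand), Cyp51 for its match to TCACCNCA (chr5:4104698-4104947, minus strand), and Insig1 for its span of values in the cortex (chr5:28071162-28071411, plus strand).

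Hmgcs1: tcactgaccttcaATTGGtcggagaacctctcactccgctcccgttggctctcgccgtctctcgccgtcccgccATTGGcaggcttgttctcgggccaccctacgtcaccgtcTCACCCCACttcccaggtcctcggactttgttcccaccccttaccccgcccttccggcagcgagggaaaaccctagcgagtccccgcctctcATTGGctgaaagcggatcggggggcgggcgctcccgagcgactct
Cyp51: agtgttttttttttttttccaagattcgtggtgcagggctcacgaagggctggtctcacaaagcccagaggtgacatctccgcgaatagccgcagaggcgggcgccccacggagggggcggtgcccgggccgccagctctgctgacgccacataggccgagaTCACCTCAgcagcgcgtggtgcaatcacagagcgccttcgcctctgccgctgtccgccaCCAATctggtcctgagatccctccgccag
Insig1: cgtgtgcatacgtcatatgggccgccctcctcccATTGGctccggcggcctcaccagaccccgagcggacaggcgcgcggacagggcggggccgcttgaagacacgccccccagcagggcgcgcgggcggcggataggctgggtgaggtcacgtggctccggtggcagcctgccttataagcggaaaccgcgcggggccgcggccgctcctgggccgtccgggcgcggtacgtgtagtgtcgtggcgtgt

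In Hmgcs1 the sterol match TCACCCCAC began 137 bases upstream of the start, and 3 CCAAT boxes lay in the window. In Cyp51 the match TCACCTCA began 88 bases upstream, and 1 CCAAT box began 29 bases upstream. Of all 32851 promoter windows of that length, 4.15% held either sterol pattern, and 33.8% held a CCAAT box. Idi1 held 2 CCAAT boxes, Lss and Insig1 held 1 each, and the window at the farthest downstream of the RefSeq starts of Dhcr7 held 2. No sterol pattern was found in the windows of these 4 genes, which says only that these letters are not there.

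Hmgcs1 (chr13:119690351-119708260) encodes the cytosolic HMG-CoA synthase, an early enzyme of the pathway. Its level was 14.49, 14.67, 14.59, and 14.96 in log2 signal in the cortex at 1.5, 4, 17, and 22 months. It was 14.35, 14.13, and 14.72 in the NCSTN, MAPT, and 5xFAD hippocampus. In ICR mice it was 14.22 and 14.36 after 5 and 10 µM Aβ, 14.34 and 14.33 after 2.5 and 3 mg/kg streptozotocin, and 14.09 after scopolamine. The 22-month cortex was the highest of the 12 arrays and scopolamine the lowest, and no ICR array reached the lowest cortex array.

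Idi1 (chr13:8885606-8892396) encodes isopentenyl diphosphate isomerase, which prepares the isoprenoid building blocks. In the cortex it stood at 11.78, 12.05, 11.64, and 12.19 from the youngest to the oldest mice. The NCSTN, MAPT, and 5xFAD arrays gave 11.93, 11.57, and 11.60, and the ICR arrays 11.54 and 11.50 (Aβ), 11.68 and 11.49 (streptozotocin), and 11.52 (scopolamine). The 4- and 22-month cortex and the NCSTN hippocampus were high, and the other arrays of each set lay close together.

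Fdps (chr3:89093588-89101967) encodes farnesyl diphosphate synthase, whose product leaves either for sterols or for protein prenylation. Its log2 signal in the cortex was 13.00, 13.31, 13.28, and 13.70 at the 4 ages. It was 13.62, 13.39, and 13.13 in the NCSTN, MAPT, and 5xFAD hippocampus, and 12.68, 12.70, 12.70, 12.65, and 12.37 in the ICR hippocampus after low and high Aβ, low and high streptozotocin, and scopolamine. Every ICR array was below every C57BL/6 array, and scopolamine was apart from the other ICR arrays, which spanned only from 12.65 to 12.70.

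Sqle (chr15:59315092-59331193) encodes squalene epoxidase, which oxidizes squalene before ring closure. Its level was 12.42, 12.49, 12.49, and 12.80 across the cortex ages. The 3 transgenic arrays gave 12.92 (NCSTN), 12.64 (MAPT), and 13.22 (5xFAD), and the ICR arrays, in the same order as above, 12.47, 12.60, 12.62, 12.55, and 12.45. 5xFAD was the highest of the 12 arrays, and all 3 transgenic arrays were above all ICR arrays.

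Lss (chr10:76531565-76557139) encodes lanosterol synthase, which closes the sterol rings. It stood at 7.70, 7.91, 7.58, and 7.99 in the cortex, at 7.69, 7.45, and 7.53 in the NCSTN, MAPT, and 5xFAD hippocampus, and at 6.79, 6.78, 6.78, 6.80, and 6.95 in the ICR hippocampus. The ICR arrays did not overlap with the others.

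Cyp51 (chr5:4080674-4104697) encodes lanosterol 14α-demethylase, the first step after lanosterol. In the cortex it was at 8.27, 8.21, 8.27, and 8.64, so that 3 ages lay within a narrow band and 22 months above it. The transgenic arrays gave 8.38 (NCSTN), 8.13 (MAPT), and 7.64 (5xFAD). The ICR arrays gave 6.34 and 7.29 after 5 and 10 µM Aβ, 7.70 and 6.39 after 2.5 and 3 mg/kg streptozotocin, and 7.36 after scopolamine. These values span 1.36 in log2 units and fall low in 5 µM Aβ and 3 mg/kg streptozotocin. The Cyp51 probe was the nearest of the 8 to background, with a raw signal 4.10 times the local background on its dimmest array.

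Dhcr7 (chr7:143823167-143848410) encodes 7-dehydrocholesterol reductase, the last step to cholesterol. Its level was 8.95, 9.26, 9.53, and 9.42 in the cortex, 9.41, 9.16, and 9.14 in the NCSTN, MAPT, and 5xFAD hippocampus, and 9.12, 9.08, 9.34, 9.28, and 8.99 in the ICR hippocampus. It was the only one of the 8 with its cortex peak at 17 months, and its 3 sets overlapped throughout.

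Insig1 (chr5:28071412-28078662) encodes the sterol-sensitive anchor of the SREBP pathway. It was higher at each later age in the cortex, from 8.22 at 1.5 months to 8.69, 9.15, and 9.33 at 4, 17, and 22 months. It was at 8.88, 8.59, and 8.29 in the NCSTN, MAPT, and 5xFAD hippocampus and at 8.39, 8.65, 8.90, 8.72, and 8.52 in the ICR hippocampus. The youngest cortex array was the lowest of the 12 and the oldest the highest.

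**Figure D1:**
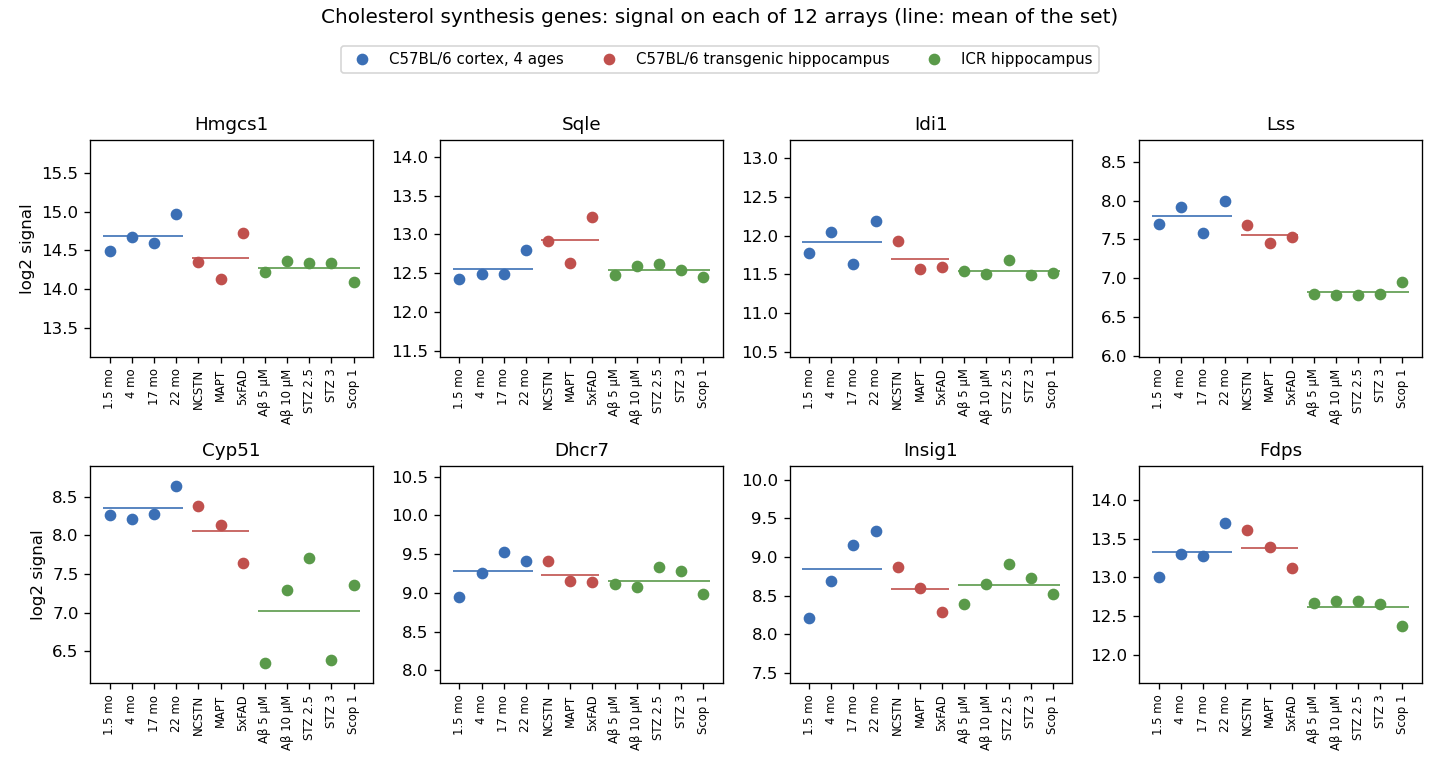
Level of each gene (log2 quantile normalized signal, vertical axis) on each of the 12 arrays, with the 4 cortex ages in blue, the 3 transgenic hippocampus arrays in red, and the 5 ICR hippocampus arrays in green. Each point is 1 array, lines mark set means, and each panel spans the same range of log2 units (STZ is streptozotocin and Scop scopolamine, in mg/kg). Lss, Fdps, and Cyp51 sit lower on the ICR arrays, and Insig1 is higher at each later age in the cortex.

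The first question was whether the genes differed among the cortex ages. Every one of the 8 genes was higher at 22 than at 1.5 months, against 55.8% of all genes, with a median log2 difference of 0.44 for the 8 genes and of 0.02 for all genes. Insig1 differed most (1.11, or 2.16-fold), followed by Fdps (0.70, or 1.63-fold), and both passed 1.5-fold, as did 7.75% of all genes upward. The other 6 differed by 0.29 (Lss) to 0.47 (Hmgcs1 and Dhcr7). With 1 pooled array for each age these are differences between arrays, with no replicate and no p-value.

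The difference was not spread evenly over the ages. From 1.5 to 4 months 7 of the 8 were higher (all but Cyp51), with a median of 0.24 and 50.9% of all genes higher. From 4 to 17 months 4 of the 8 were higher, against 51.2% of all genes, with a median of -0.01, when Idi1 (-0.41) and Lss (-0.33) were lower and Insig1 (0.46) and Dhcr7 (0.26) higher. From 17 to 22 months 7 of the 8 were higher, with a median of 0.37 and 52.5% of all genes higher, and the exception was Dhcr7 (-0.11). Outside the interval from 4 to 17 months, 7 of the 8 thus differed in the same direction at each step.

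Against the mean of the other 3 cortex arrays, all 8 genes were above on the 22-month array, where 53.2% of all genes were above, and all 8 were below on the 1.5-month array, where 54.5% of all genes were below. Their median log2 ratio was 0.37 at 22 months, -0.21 at 1.5 months, -0.03 at 4 months, and -0.09 at 17 months. Such ratios sum to 0 over a set for each gene, so high values on one array lower the others. Without the 22-month array the count above on the 1.5-month array was 1 of 8. The 22-month array was the highest of its set for 7 of the 8 genes and for 24.2% of all genes, and the 1.5-month array was the lowest for 5 and for 27.8%.

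The other genes of the pathway, 15 enzymes, had a median ratio of 0.26 at 22 months with 14 of 15 above, and of -0.25 at 1.5 months with 13 of 15 below. The largest at 22 months was Mvk, mevalonate kinase (0.52). Srebf2 gave -0.53, 0.36, -0.04, and 0.22, and so was not highest where the members were. Among the 9 genes of sterol sensing and uptake, 7 were above at 22 months (median 0.15). The 12 genes of cholesterol export and turnover had a median of 0.03 at 22 months with 7 above, and Ch25h, cholesterol 25-hydroxylase, had -1.06 there. Of 9 genes of fatty acid synthesis 7 were above (median 0.11), with Acaca, acetyl-CoA carboxylase, at 0.32.

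Myelin markers differed among the same cortex arrays. Their median ratio over 10 genes was -0.54 at 1.5 months, 0.81 at 4 months, -0.61 at 17 months, and 0.25 at 22 months, and their summed log2 level was 16.27, 17.22, 16.14, and 16.84. All 10 were above the mean of the other ages at 4 and at 22 months, and the median was highest at 4 months. Idi1 (-0.18, 0.18, -0.37, and 0.36) and Lss (-0.13, 0.15, -0.28, and 0.26) had the sign of that median at each of the 4 ages, whereas the median of the members was -0.03 at 4 months. In pooled tissue, more cells of a type and more RNA per cell cannot be told apart. The 17-month array also carried choroid plexus markers, with a median ratio of 3.42 over 7 genes, 6 of them above. The part of either tissue in the members' values was not tested.

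**Figure D2:**
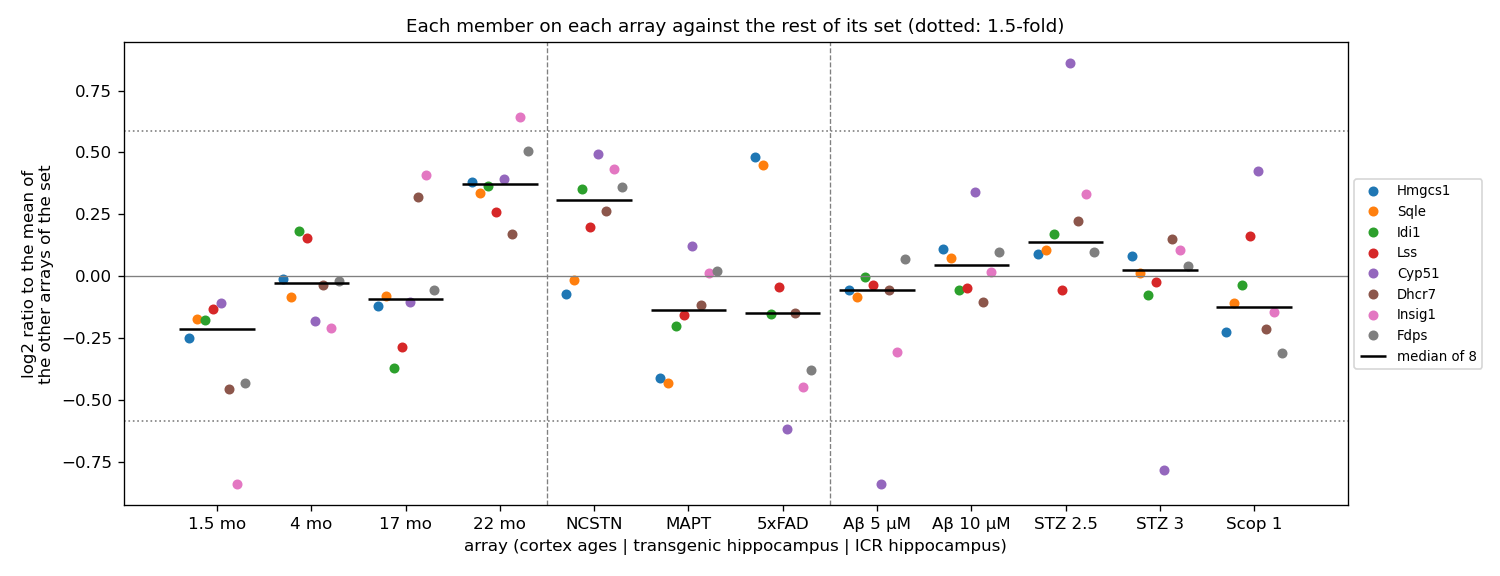
Log2 ratio of each gene (colour) on each array, relative to the mean of the remaining arrays in its set, with the median of the 8 genes as a black bar, 0 as a grey line, and 1.5-fold as dotted lines. Dashed lines part the sets. All 8 points lie above 0 at 22 months and below 0 at 1.5 months, and 6 of the 96 points pass 1.5-fold, 4 of them Cyp51 and the others Insig1.

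Among the transgenic arrays, all 8 genes were lower in the MAPT than in the NCSTN hippocampus, by 0.23 (Hmgcs1 and Fdps) to 0.37 (Idi1) on the log2 scale. The median was -0.25, with 54.8% of all genes lower and a median of -0.02 over all genes. The same held for 15 of the 15 other enzymes of the pathway (median -0.22). None of the 8 passed 1.5-fold, as 5.55% of all genes did downward. The narrow range of the 8 differences set this pair apart from the cortex ages, where they ran from 0.29 to 1.11. Differences of the other 15 enzymes between MAPT and NCSTN ranged more widely than those of the 8. The MAPT array carried pituitary hormone transcripts, with a median ratio of 3.93 over 4 measured genes. Of these, 3 were past 1.5-fold higher (5.45% of all genes), whereas Pomc lay between 8.79 and 8.86 on the transgenic arrays. The summed log2 level of the 4 genes was 12.51 in MAPT against 8.85 and 8.86 in NCSTN and 5xFAD. Prl alone was at 12.35 in its highest transgenic array, and Tshb stayed near background on every array. The part of this tissue in the members' values was not tested, and age (10 and 12 months) and transgene cannot be told apart.

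In 5xFAD the 8 genes did not differ in 1 direction. Compared with NCSTN, Hmgcs1 (0.37) and Sqle (0.31) were higher and the other 6 lower (55.8% of all genes were lower), with Cyp51 at -0.74 (1.67-fold) and Insig1 at -0.59 (1.50-fold), the 2 that passed 1.5-fold among 15.0% of all genes. Compared with MAPT, Hmgcs1 (0.60) and Sqle (0.59) were each just past 1.5-fold higher, as 14.1% of all genes were, Idi1 (0.03) and Lss (0.08) differed little, and Cyp51 (-0.49), Insig1 (-0.31), Fdps (-0.27), and Dhcr7 (-0.02) were lower. In all, 4 of the 8 were above MAPT, against 46.5% of all genes. 5xFAD was thus the highest array of its set for Hmgcs1 and Sqle and the lowest for Cyp51, Dhcr7, Insig1, and Fdps. These counts were not far from the shares over all genes, of which 37.1% were highest and 46.3% lowest there. NCSTN was the highest for the other 6 (35.3% of all genes), and MAPT the lowest for the other 4 (29.0%). Of the other 15 enzymes, 7 were above and 8 below the mean of the other transgenic arrays in 5xFAD (median -0.002). Of all genes 44.0% were above there. Srebf2 had a log2 ratio of 1.18 on the 5xFAD array, against -0.58 on NCSTN and -0.60 on MAPT. Ch25h, the oxysterol-forming enzyme named above, had 4.46, and 8 of the 12 export and turnover genes were above.

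The 5xFAD array was also the one with the most microglial signal. All 8 microglial markers were above the other transgenic arrays, with a median ratio of 1.58 and a summed log2 level of 16.61 against 14.72 (NCSTN) and 14.65 (MAPT). Of the 10 myelin markers 8 were above (median 0.45), and of the 7 astrocyte markers 6 (median 0.23). Past 1.5-fold, 13.3% of all genes were above and 13.5% below on this array, more than on any other, and it also had the largest share of probes well above background (75.8%). Markers of the cortex region (5 genes) had a median of 0.31 on NCSTN, 0.27 on MAPT, and -0.57 on 5xFAD. Markers of the hippocampus region (7 genes) had 0.16, 0.37, and -0.55. The part of these cell types and of region in the members' values was not tested.

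Among the ICR arrays most of the 8 genes varied less. Cyp51 had its widest range there (1.36 in log2 units, against 0.43 in the cortex and 0.74 in the transgenic set). Dhcr7 ranged more widely there (0.35) than in the transgenic set (0.28), but less than in the cortex (0.58). The median range of the 8 genes was 0.30, against 0.51 in the cortex and 0.54 in the transgenic set. Over all genes these medians were 0.41, 0.39, and 0.45. After 2.5 mg/kg streptozotocin 7 of the 8 were above the mean of the other ICR arrays, where 50.8% of all genes were above, with a median ratio of 0.14. This array was the highest of its set for 6 of the 8 genes and for 23.5% of all genes. Cyp51 was at 0.86, Insig1 at 0.33, and Dhcr7 at 0.22, and the exception was Lss (-0.06). Of the other 15 enzymes, 12 were above (median 0.15).

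The 3 mg/kg array was below the 2.5 mg/kg array for 7 of the 8 genes and for 47.7% of all genes. Most of these differences were small, with a median of -0.07, and Cyp51 alone passed 1.5-fold (-1.31, or 2.49-fold), as did 5.63% of all genes. Between the Aβ doses, 5 of the 8 were higher at 10 than at 5 µM, where 54.0% of all genes were higher, and again Cyp51 alone passed 1.5-fold (0.95, or 1.93-fold), as did 5.65% of all genes. After scopolamine 6 of the 8 were below, with a median of -0.13 and 51.7% of all genes below, and the array was the lowest of its set for Hmgcs1, Sqle, Dhcr7, and Fdps (20.4% of all genes) and the highest for Lss (20.7%). Each dose was measured on 1 pooled array, so no interval can be given for a difference between doses.

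Both streptozotocin arrays were low in choroid plexus markers, with all 7 negative in ratio on each. The median ratio over 7 markers was -4.75 and -3.77 at 2.5 and 3 mg/kg, with a summed log2 level of 11.68 and 12.38 against 17.49 to 17.57 on the other ICR arrays. The median over the members was 0.14 and 0.03 on these arrays. Myelin markers were high after 5 µM Aβ (median 0.38) and scopolamine (0.44) and low after 10 µM Aβ (-0.61) and 3 mg/kg streptozotocin (-0.34), whereas the member medians there were -0.06, -0.13, 0.04, and 0.03. Markers of the cortex region (5 genes) had a median of 0.66 after 2.5 mg/kg streptozotocin and -0.33 after scopolamine. Markers of the hippocampus region (7 genes) had 0.40 and -0.33. The part of region in the members' values was not tested.

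The largest ratios of all belonged to Cyp51, at -0.84 after 5 µM Aβ, -0.78 after 3 mg/kg streptozotocin, 0.86 after 2.5 mg/kg streptozotocin, and -0.62 in 5xFAD, and to Insig1, at -0.84 at 1.5 months and 0.64 at 22 months. These 6 of 96 ratios passed 1.5-fold. On these arrays the share of all genes past 1.5-fold in the same direction was 4.73%, 6.28%, 5.67%, 13.5%, 6.55%, and 4.72%. With normexp background correction the Cyp51 ratios were -0.48, -0.50, 0.52, and -0.46, all short of 1.5-fold, and Insig1 at 1.5 months (-0.72) was the one ratio that passed.

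The second question was whether the 3 sets differed. The model took the arrays of a set as its replicates, and the sets differ in more than region. Cortex and hippocampus arrays carried the markers of their label, as Rorb and Cux2 were higher on all cortex arrays and Prox1, Fibcd1, Spink8, and Dsp on all hippocampus arrays, while Fezf2 and Tshz2 did not separate the cortex, nor C1ql2, Tdo2, and Wfs1 the hippocampus. Strain, age, or treatment also differ between sets. Xist, expressed in females, was well above background on the 3 transgenic arrays and on none of the other 9, and the Y-linked Eif2s3y and Ddx3y on those 9 alone, although the methods state male mice. Region, strain, age, and treatment cannot be told apart between ICR and cortex, nor strain, age, sex, and model between ICR and transgenic hippocampus, nor region, sex, and transgene between transgenic hippocampus and cortex, whose ages also differ.

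The ICR hippocampus was lower than the C57BL/6 cortex in 5 of the 8 genes, against 18.4% of all genes called lower (limma, adjusted p under 0.05), and higher in none, against 18.1%. Lss was lower by a log2 difference of -0.98 (SE 0.096, adjusted p = 3.73e-05 by limma), Fdps by -0.71 (SE 0.15, adjusted p = 0.0036), and Cyp51 by -1.33 (SE 0.29, adjusted p = 0.0045). Hmgcs1 at -0.41 (SE 0.13, adjusted p = 0.033) and Idi1 at -0.37 (SE 0.12, adjusted p = 0.036) were near the threshold. Both lost the call without the 4-month array (adjusted p = 0.065 and 0.099), the 22-month array (0.094 and 0.10), the 5 µM Aβ array (0.061 and 0.062), or the scopolamine array (0.072 and 0.067), and Idi1 also without 10 µM Aβ (0.071) or 3 mg/kg streptozotocin (0.070). Idi1 lost it with normexp (adjusted p = 0.064) and with scaling to the 75th percentile (0.059) as well. Lss, Fdps, and Cyp51 kept it with any array left out.

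Dhcr7 (-0.13, adjusted p = 0.45), Insig1 (-0.21, adjusted p = 0.49), and Sqle (-0.01, adjusted p = 0.96) did not pass. With the deposited matrix Dhcr7 did (-0.48, adjusted p = 0.034). In Hmgcs1, Lss, Cyp51, and Fdps, all 5 ICR arrays were below all 4 cortex arrays, as they were for 18.3% of all genes. The median difference of the 8 genes was -0.39, against 0.01 over all genes. Of the other 15 enzymes 7 were lower and none higher (median -0.25). Srebf2 was lower as well (-0.76, SE 0.24, adjusted p = 0.028). Of the 9 genes of sensing and uptake 3 were lower and 2 higher, of the 12 of export and turnover 2 lower and 3 higher, and of the 9 of fatty acid synthesis 1 higher.

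Within the hippocampus, the ICR set was lower than the transgenic set in 2 of the 8 genes, against 5.22% of all genes called lower, and higher in none, against 6.63%. The lower ones were Lss (-0.73, SE 0.10, adjusted p = 0.0022) and Fdps (-0.76, SE 0.16, adjusted p = 0.014). Fdps lost the call without NCSTN (adjusted p = 0.051) or MAPT (0.052). Cyp51 had the largest difference (-1.03, SE 0.31) and missed the threshold (adjusted p = 0.057), as did Sqle (-0.39, SE 0.13, adjusted p = 0.077). Cyp51 passed with normexp (adjusted p = 0.039), the 75th percentile (0.024), quantile normalization within sets (0.0028), the deposited matrix (0.0077), the 2-fold filter (0.044), and a trend (0.0498), and without 5xFAD (0.042) or 2.5 mg/kg streptozotocin (0.031). Sqle passed within sets (0.0015), with the matrix (0.0056), and without MAPT (0.040). Normalization within sets does not align the sets. On that scale the median over all genes was -0.35, and 8061 of 19648 genes were called lower. Passing within sets thus says little about Cyp51 or Sqle. All 5 ICR arrays were below all 3 transgenic arrays in Sqle, Lss, and Fdps, as for 8.98% of all genes. Of the other 15 enzymes 3 were lower, among them the late enzymes Sc5d and Hsd17b7, and none was higher.

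The transgenic hippocampus and the cortex, which share the strain, differed in none of the 8 genes by limma at adjusted p under 0.05, against 7.45% of all genes called higher and 9.13% lower. The lowest unadjusted p-values by limma among the 8 were 0.019 for Sqle (0.38 higher, SE 0.14) and 0.048 for Lss (0.24 lower, SE 0.11). Sqle had an adjusted p of 0.084, and of 0.0497 without the 22-month array and 0.027 without MAPT. Each of the 8 genes had overlapping values in these sets, whereas 13.0% of all genes lay wholly higher and 18.5% wholly lower in the transgenic set. Of the other 15 enzymes 2 were lower, among them Hsd17b7 (-0.51, SE 0.15, adjusted p = 0.039), and none higher.

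**Figure D3:**
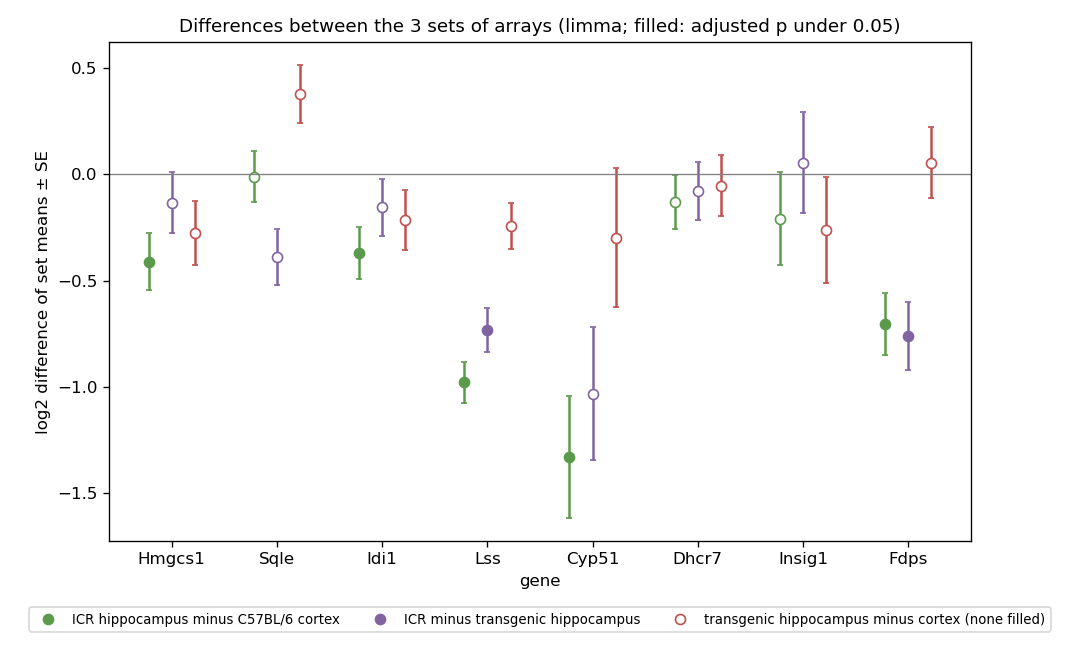
Difference of set means in log2 units (vertical axis, bars show the SE) for each gene in 3 contrasts by limma, with 5 ICR, 3 transgenic, and 4 cortex arrays. Filled points passed an adjusted p under 0.05. Filled points are those of Hmgcs1, Idi1, Lss, Cyp51, and Fdps against the cortex and of Lss and Fdps against the transgenic hippocampus.

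The last question was whether the genes moved together from array to array. After each set was centred on its mean, Pearson's r was taken over the 12 arrays for each of the 28 pairs of members. It was above 0 in 27 pairs with a median of 0.32, and ran from -0.08 (Hmgcs1 with Cyp51) to 0.97 (Hmgcs1 with Sqle). Over all pairs of genes tested the median was 0.00, with 50.4% above 0. These are descriptions, without a test, over arrays that share a set mean and the normalization. Pairs among the other 15 enzymes had a median of 0.35, with 80 of 105 above 0, and pairs of a member with one of these a median of 0.41, with 104 of 120 above 0.

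The pairs did not follow the order of the pathway. Hmgcs1 and Sqle, an early and a middle step, lay closest (0.97), and r was at least 0.94 with any array left out. Dhcr7 and Insig1 gave 0.89, Idi1 and Lss 0.85, and Insig1 and Fdps 0.81, with lowest values of 0.78, 0.76, and 0.71 on leaving out an array. Cyp51 and Sqle had the lowest median r with the other members (0.27 each), and Insig1 the highest (0.43). The median r of the 28 pairs depended on single arrays. It was 0.14 without the 22-month cortex array, where all 8 genes were high, and 0.58 without 5xFAD, where Hmgcs1 and Sqle parted from the rest. Without 5xFAD the MAPT and NCSTN arrays alone made up their set, and the number of arrays with all 8 genes on the same side was 4 in place of 2.

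**Figure D4:**
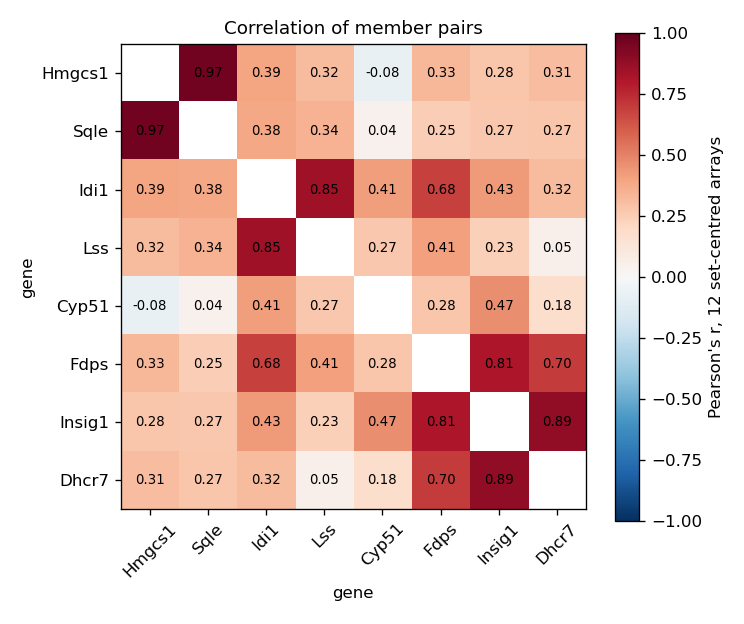
Pearson's r between members (rows and columns) over 12 arrays centred on the mean of their set, from blue (-1) through white (0) to red (1), with the value in each cell. Hmgcs1 with Sqle (0.97), Dhcr7 with Insig1 (0.89), and Idi1 with Lss (0.85) are the darkest cells, and Cyp51 is pale with most genes.

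**Figure D5:**
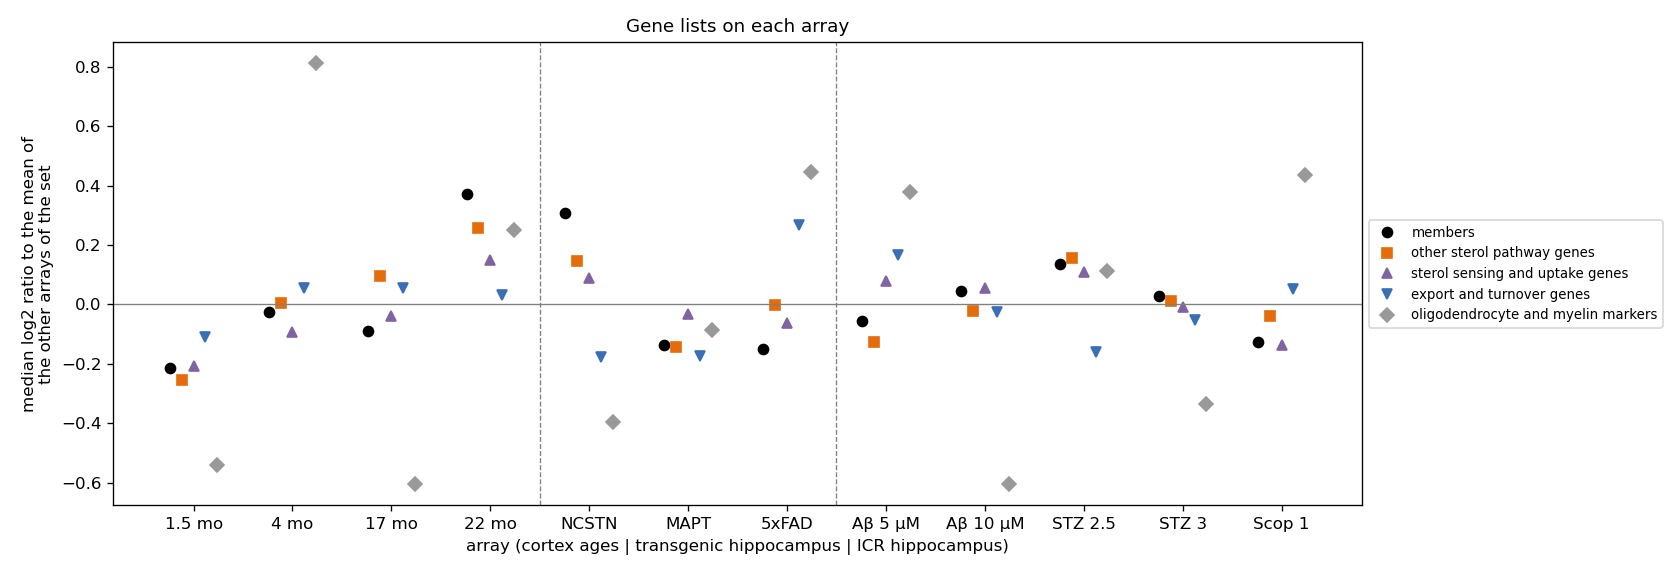
Median log2 ratio to the other arrays of the set (vertical axis) for the 8 members and 4 other gene lists on each of the 12 arrays. Each point is the median of 1 list on 1 array, and dashed lines part the sets. Members and other sterol pathway genes are both highest at 22 months, whereas the myelin markers are highest at 4 months (0.81).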

How the data were processed

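Members and gene lists were chosen with earlier results of these data known. The authors hybridized RNA to 1-colour Agilent mouse arrays and deposited the intensity of each spot from the Feature Extraction software, not normalized between arrays, with a matrix of processed intensity values. Here log2 of the processed signal was taken, outlier spots (110 to 234 per array of 43020) were left out, spots of a probe were averaged, and, after the methods of the study, probes at least 1.4-fold over the local background on all 12 arrays (36520 of 39429) were quantile normalized. Accessions were matched without versions to the RefSeq table of GRCm38.p6 (69.8% of probes), and probes of a gene were averaged, which gave 19648 genes. No spot was saturated, and 63.5% to 75.8% of probes were well above background. Quantile normalization removes any change shared by all genes.

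For each gene, the ratio of an array to the mean of its set without that array was taken, and 1.5-fold was called. Sets were compared by limma 3.58.1 in R 4.3.3 (lmFit and eBayes, Benjamini-Hochberg adjustment over all genes), and arrays of a set served as replicates there. The number of arrays limits the precision. Both steps were tested on simulated data. Named genes were the 8 members, Srebf2, and, per pathway list, the gene with the largest ratio on the array with the largest member median. Some genes that the rule covers are left out here. Sc5d, Hsd17b7, and the marker genes were named after their values were seen, as was the 5xFAD value of Ch25h. Alternatives were normexp with an offset of 50, scaling to the 75th percentile, quantile normalization within each set, the deposited matrix, no filter or a 2-fold filter, the brightest probe, eBayes with a trend, the median of the other arrays, a 2-fold threshold, and each array left out. Normexp used median foreground and background. Python 3.11.15 with numpy 2.4.6, pandas 2.3.3, and matplotlib 3.10.9 was used.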

Additional observations from a re-analysis of the deposited data

Results flagged for a closer look

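Of 16 groups of 4 or 5 arrays for a gene, 3 held an array far from the others by Dixon's test. For independent groups of replicates the test marks about 1 in 20 by chance. Here the groups share arrays, and arrays of a set are different models, so that rate cannot be set against the 3. Cyp51 at 22 months (8.64 in log2 signal) was 0.37 above the next of the 4 cortex arrays, a gap of 0.86 of the range. Lss after scopolamine (6.95) was 0.15 above the next of the 5 ICR arrays (0.86 of the range), and Fdps after scopolamine (12.37) was 0.28 below the next (0.86 of the range).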

How the results depend on the processing

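No paired analysis was possible because each group has 1 array. A block for slide or scan was not run, since no slide is named in the files used. Quantile normalization within each set put the median of all genes at 0.20 (transgenic minus cortex) and -0.35 (ICR minus transgenic), scaling to the 75th percentile put it at 0.11 (ICR minus cortex), and the deposited matrix put it at -0.14, 0.24, and -0.22 on the 10 µM Aβ, 2.5 mg/kg streptozotocin, and scopolamine arrays. On these scales all 8 members remained above at 22 months, below at 1.5 months, and lower in MAPT than in NCSTN. The cause of the changes below was not tested.

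The count of members called in transgenic minus cortex was 1 with quantile normalization within sets, and 0 to 1 with an array left out. In ICR minus cortex it was 4 with normexp, 4 with the 75th percentile, and 6 with the matrix, and 3 to 5 with an array left out. In ICR minus transgenic it was 7 with quantile normalization within sets and 5 with the matrix, and 1 to 3 with an array left out (1 without NCSTN). Over all genes, ICR minus transgenic gave 1302 higher and 1025 lower as reported, 2719 and 1490 with the 75th percentile, 1299 and 8061 within sets, and 4043 and 3582 of 17788 with the matrix. Without MAPT it gave 543 and 520, without 10 µM Aβ 808 and 637, without 3 mg/kg streptozotocin 815 and 696. Transgenic minus cortex gave 4958 and 1394 within sets against 1463 and 1793, and ICR minus cortex 2690 and 5358 within sets, 4235 and 3248 with the 75th percentile, and 5451 and 4960 with the matrix, against 3551 and 3615.

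Ratios past 1.5-fold numbered 1 with normexp, 3 with the matrix, 0 at a 2-fold threshold, and 4 to 9 with an array left out, against 6. Arrays with all members on 1 side numbered 0 to 4 with an array left out (0 without 22 months, 1 without 1.5 months, 4 without 5xFAD), against 2. The 4-month median ran from -0.17 (without 1.5 months) to 0.082, the 17-month median from -0.19 to 0.03, the 1.5-month median from -0.33 to -0.10, and the 5xFAD median from -0.31 to 0.01.

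Set differences that passed no threshold changed sign as follows. In transgenic minus cortex, quantile normalization within sets gave Cyp51 0.011, Dhcr7 0.20, Insig1 0.017, and Lss 0.10, and the 75th percentile gave Fdps -0.052. With an array left out, Dhcr7 ran from -0.17 to 0.027 and Fdps from -0.066 to 0.18. In ICR minus cortex, Sqle was 0.0047 with normexp and ran from -0.053 to 0.074 with an array left out. In ICR minus transgenic, Dhcr7 ran from -0.13 to 0.011, Hmgcs1 from -0.27 to 0.028, and Insig1 from -0.095 to 0.20 with an array left out, and Insig1 was -0.028 with the 75th percentile, -0.43 within sets, and -0.26 with the matrix.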
